A study of Mus musculus with 8 samples.

Results

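The livers of 1-month-old mice were compared with those of 5-day-old mice, 3 arrays against 3 of the 8 in the series, chosen by the age in the sample titles, with genotype kept as a term in the fit. At 5 days the samples were 1 wild-type array and 2 arrays of mice that lack Arid1a in hepatocytes (knockout below), and at 1 month again 1 wild-type array and 2 knockout arrays. All mice are labelled C57BL/6 and male. By the series' design the knockout RNA came from individual mice and the wild-type RNA at 5 days and at 1 month from a pool of 2 control mice. The labels name neither the Cre driver nor the deleted exons, and whole liver was frozen, so every sample holds all the cell types of the organ. Both 2-week arrays, 1 of each genotype, stayed out of the comparison and are used at the end to describe timing. The labels do not say which mice shared a litter, and the p-values measure the spread between these arrays alone.

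Around birth the liver is still a blood-forming organ, and its hepatocytes divide and secrete fetal proteins. In the following weeks blood formation moves to the bone marrow, pups change from fat-rich milk to a carbohydrate-rich diet, hepatocytes leave the cell cycle, and the adult sets of enzymes for nitrogen, lipid, bile acid and drug metabolism are switched on. Sex-dependent genes driven by the pattern of growth hormone secretion follow later, toward puberty. Arid1a encodes a subunit of the BAF complexes, which remodel chromatin.

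The values are log2 processed signal scaled to each array's 75th percentile, on which a difference of 1 is a 2-fold change. The differences are given as 1 month minus 5 days with the standard error of the limma fit and its Benjamini-Hochberg adjusted p over all 17232 genes tested (3 arrays at each age). A gene "rose" or "fell" where that p was under 0.05, and the 3 values at an age are given in the order wild type, knockout 1 and knockout 2. On the arrays 59.9 to 62.4% of probes were well above background at 5 days and 55.7 to 56.8% at 1 month, and no spot was saturated. With 3 arrays at each age, precision is limited throughout. 5-day knockout 1 stands apart from the others. In it Xist, the RNA of the inactive X chromosome, read 13.43 and the Y-linked Ddx3y 1.93, below background, against its male label, while 5-day knockout 2 read 1.74 and 10.69, and the 5-day wild-type pool read 12.13 and 9.42. The summed signal of 4 skeletal muscle markers was 11130 in 5-day knockout 1 and 165.7 to 223.6 on the other 5 arrays. This array was on the slide that carried all 1-month arrays, and both other 5-day arrays were on the other slide, so that the age comparison is also in part a comparison of slides. Arid1a itself, read by 1 probe that the labels do not place against the deletion, read 9.67, 9.47 and 9.58 at 5 days and 9.35, 8.83 and 8.78 at 1 month.

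Most measured genes differed between the ages. Of 17232 genes, 5070 rose (29.4%) and 4620 fell (26.8%), together 56.2%. Each of these 9690 genes had the same sign in wild type and knockouts. The additive fit nearly requires this of a called gene, since disagreement between the genotypes adds to its residual spread. A change of at least 2-fold in both genotypes was found for 1311 genes that rose (7.61%) and 2366 that fell (13.7%), and 117 of the former were not above background on any 5-day array and 672 of the latter on any 1-month array. All 3 arrays of 1 month lay above all 3 of 5 days for 34.7% of genes and below them for 30.0%. The counts of each gene list given below are read against these shares. With slide as a block the age difference rests on 5-day knockout 1 against the 1-month arrays. All 9690 genes then kept their direction and 5435 their call, and without 5-day knockout 1 all kept their direction and 8130 their call. These genes were called on the same arrays, so that their kept direction was nearly given in advance. The split between genes that rose and fell depended on the scaling: 52.3% of called genes were higher here, where the median of all genes was 0.09, and 62.7% (6388 against 3797) with median centring, where it was 0.25. Quantile normalization gave 48.2% higher (median 0.01). Among the genes described singly, those that lost their call with quantile normalization included Alb, Clec4g, Cyp2e1, Ghr and Glul. With slide as a block more of them lost it, each keeping its direction. These included Alb, Apoa1, Arid1a, C1qa, Cdkn1b, Cdkn2c, Clec4g, Cyp2e1, Cyp7b1, Gpc3, H19, Mug1, Rrm2, Serpina4-ps1, Sult1c2, Thrb and Wif1.

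The wild type and the knockouts, which share no array, mostly ran alike. The knockouts alone had 4152 genes that rose (24.1%) and 4025 that fell (23.4%). Of 2184 genes at least 2-fold higher at 1 month in the wild type, 94.9% were also higher in the knockouts and 65.9% passed the test there. Of 3156 genes at least 2-fold lower in the wild type, 96.8% were lower in the knockouts and 83.9% passed. Of the same sets 22 and 17 genes passed in the opposite direction in the knockouts. Over all genes the wild-type and knockout differences had a Pearson r of 0.868, as a description, since genes are not replicates. The 5-day wild type and 5-day knockout 2 were on a different slide from all 1-month arrays. Slide thus enters both differences, as does the Xist signal of the 5-day wild type and 5-day knockout 1.

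**Figure D1:**
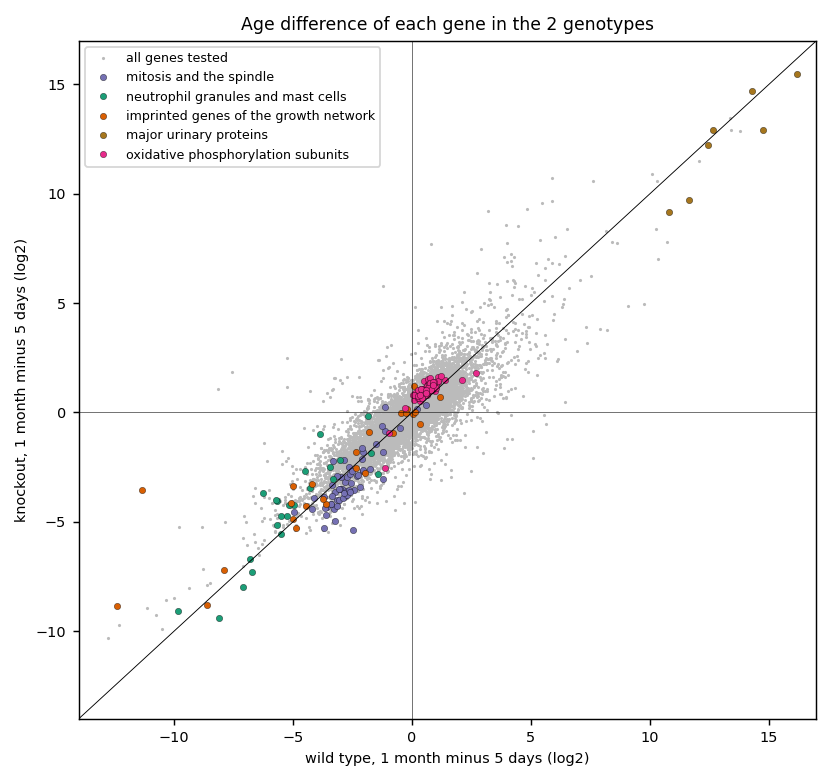
Age difference of each of the 17232 genes in the wild type (horizontal, 1 array at each age, log2) against the knockouts (vertical, means of 2 arrays at each age, log2), with the line of equal difference and with the genes of 5 lists in colour. Mitotic, neutrophil and most imprinted genes lie at the lower left, the major urinary proteins at the far upper right, and the imprinted genes H19 and Igf2 lie above the line at the far left.

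Fetal liver genes fell. Of 18 measured genes of the fetal and oncofetal list, 17 fell and 1 rose, with a median of −3.53, and 15 fell at least 2-fold in both genotypes. Afp, the albumin-like carrier protein of fetal plasma, read 17.68, 17.70 and 17.76 at 5 days and 7.70, 9.14 and 9.32 at 1 month, a fall of 9.0 ± 0.32 (adjusted p = 0.000168). The 1-month knockouts lay above the 1-month wild type, and every 1-month array far below every 5-day array. Alb, its neighbour in the same gene cluster, read 17.73, 17.89 and 17.88 and then 18.43, 18.44 and 18.48 (0.62 ± 0.10, adjusted p = 0.00542), but differed by 0.04 with quantile normalization. The promoters of both genes are shown because they parted so far with age. They are 300-base windows from RefSeq on GRCm38.p6, from 250 bases before to 50 after the annotated start, with matches to GTTAAT, letters known from promoters of hepatocyte genes, in capitals (searched on both strands). The windows are at chr5:90490464-90490763, plus strand for Afp and chr5:90460620-90460919, plus strand for Alb.
Afp: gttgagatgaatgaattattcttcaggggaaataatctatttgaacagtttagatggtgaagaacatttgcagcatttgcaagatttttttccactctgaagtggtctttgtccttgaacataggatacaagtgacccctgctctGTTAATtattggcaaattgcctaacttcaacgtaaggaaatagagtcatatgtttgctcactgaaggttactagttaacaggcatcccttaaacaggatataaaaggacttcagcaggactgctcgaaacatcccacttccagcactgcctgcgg
Alb: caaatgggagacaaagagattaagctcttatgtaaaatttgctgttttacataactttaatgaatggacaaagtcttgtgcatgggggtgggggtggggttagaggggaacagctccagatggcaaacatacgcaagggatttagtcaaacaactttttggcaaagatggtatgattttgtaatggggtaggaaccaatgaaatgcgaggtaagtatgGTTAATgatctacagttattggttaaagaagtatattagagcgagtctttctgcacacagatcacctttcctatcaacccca
Each window holds 1 such match. The 6 letters occur in 35.7% of promoters of the plasma carrier list (28 promoters), in 7.10% of all 32851 promoters in the table and in 5.10% of promoters of the genes tested. A match is a description and not a bound site.

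The imprinted genes of the fetal growth network fell together with Afp. Of 25 measured, 17 fell and 2 rose (median −2.51), and among the 21 above background at both ages 13 fell. Igf2, the fetal growth factor, read 15.91, 16.06 and 16.03 at 5 days and 3.51, 7.25 and 7.10 at 1 month, where the wild type was below background, a fall of 10.05 ± 0.73 (adjusted p = 0.000555). H19, the non-coding RNA next to it, read 16.97, 16.67 and 16.84 and then 5.63, 13.37 and 13.04, a fall of 6.15 ± 1.60 (adjusted p = 0.0236). The 1-month knockouts thus kept more of both RNAs than the 1-month wild type. Dlk1, a Notch-like surface protein of hepatoblasts, read 10.64, 10.98 and 10.65 and was below background on all 1-month arrays, at least 90.2-fold lower (adjusted p = 1.66e-05). Of the genes described singly, Akr1c18, Dio3, Gpc3, Hells, Igf2, Kif11, Ltf, Slc2a3 and Wif1 were above background on 2 of 3 arrays at 1 month, Hamp2 and Thrsp on 2 and Cyp2d13, Orm1 and Orm2 on 1 of 3 at 5 days, so that their fitted differences include a signal below background. "At least" folds are set against the dimmest signal well above background on those arrays. Meg3, the maternal RNA of the Dlk1 locus, fell by 7.46 ± 0.22 (14.43, 14.04 and 13.74 to 6.51, 6.89 and 6.44). The growth-restraining adaptor Grb10 fell by 4.33 ± 0.13, Plagl1, a zinc finger regulator of the network, by 4.01 ± 0.17, the cyclin-dependent kinase inhibitor Cdkn1c by 3.91 ± 0.39, Peg3 by 5.16 ± 0.23 and Mest by 3.89 ± 0.14. Neither age overlapped the other for any of these genes.

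**Figure D2:**
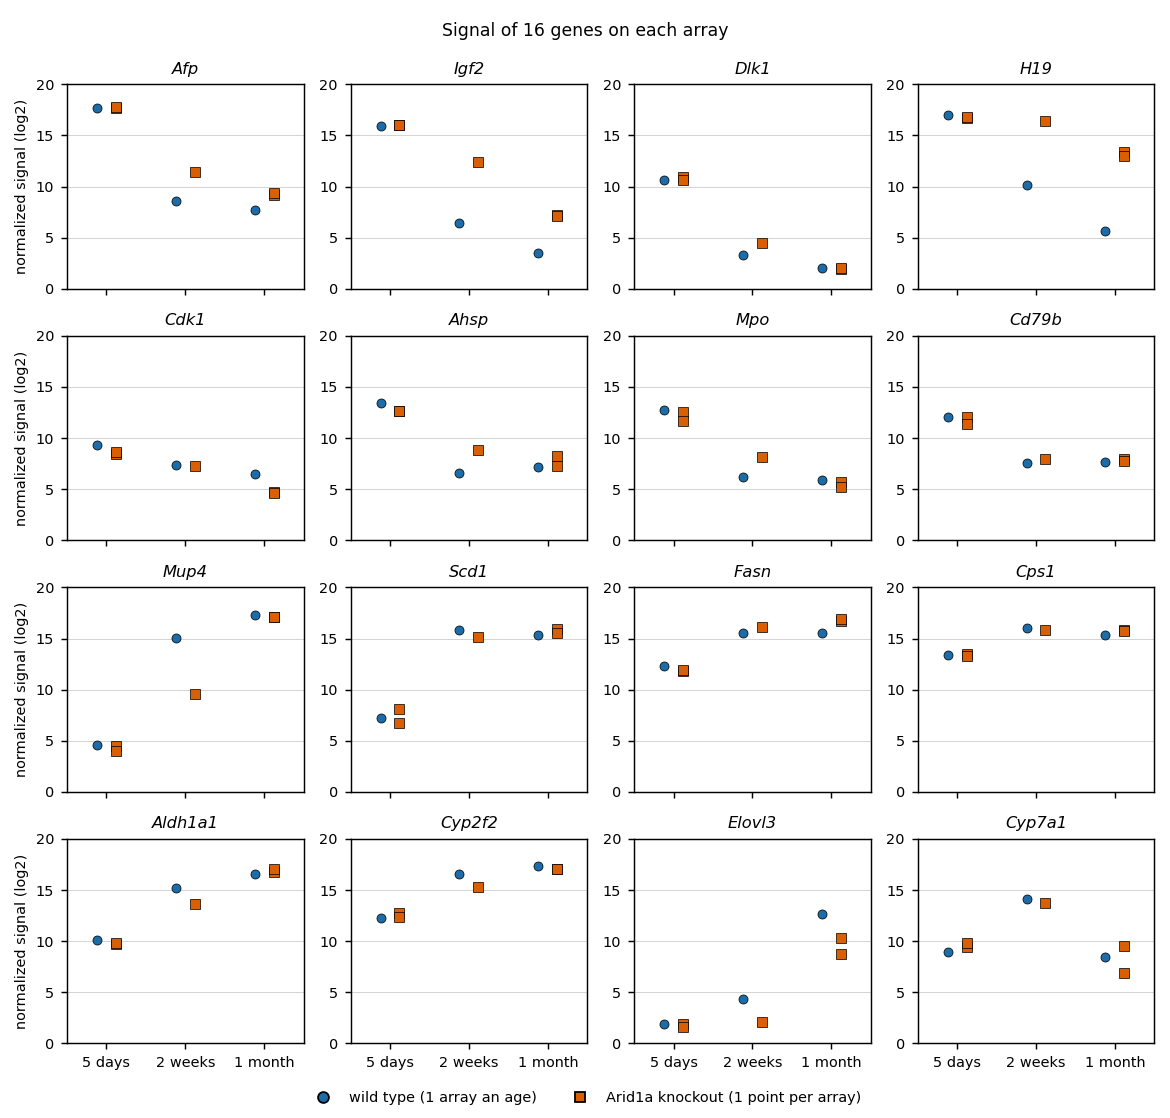
Normalized signal (log2) of 16 genes on each of the 8 arrays by age, 1 point per array, circles for wild type and squares for knockouts, with no error bars. Afp, Igf2, Dlk1, Cdk1, Ahsp, Mpo and Cd79b are high at 5 days and low at 1 month, Mup4, Scd1, Fasn, Aldh1a1, Cyp2f2 and Elovl3 do the opposite, and Cyp7a1 is highest on both 2-week arrays.

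Genes of cell division fell nearly as one group. Of 59 genes of mitosis and the spindle, 55 fell and 0 rose in the age test (limma), with a median of −3.26, and of the 48 above background at both ages 44 fell. Cdk1, the kinase that starts mitosis, read 9.34, 8.43 and 8.65 at 5 days and 6.49, 4.72 and 4.64 at 1 month, a fall of 3.53 ± 0.24 (adjusted p = 0.000484). Its partner cyclin Ccnb2 read 12.72, 11.96 and 12.29 and then 9.48, 8.5 and 8.43, a fall of 3.52 ± 0.15 (adjusted p = 0.000212). The polo kinase Plk1 read 10.92, 10.34 and 10.45 and then 8.15, 6.97 and 6.49, a fall of 3.37 ± 0.24 (adjusted p = 0.000549). In all 3 the wild-type pool was the highest array at both ages, and the ages did not overlap. The chromosomal passenger Incenp fell by 2.98 ± 0.11, the spindle motors Kif11 and Kif22 by 3.34 ± 0.14 and 2.97 ± 0.13 and the kinetochore protein Nuf2 by 2.89 ± 0.12, and Aspm, a protein of the spindle poles, was below background at 1 month (at least 4.01-fold lower). With slide as a block 53 of the 59 fell, and without 5-day knockout 1 55 fell.

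Promoters of 3 of these genes are shown because the mitotic genes moved together. The capitals mark the letters TTTGAA, the CHR element of genes expressed in G2 and mitosis, and CCAAT, the box bound by NF-Y, on either strand (so that TTCAAA and ATTGG are marked as well). The windows are at chr7:122159185-122159484, plus strand for Plk1, chr9:70421505-70421804, minus strand for Ccnb2 and chr10:69352863-69353162, minus strand for Cdk1.
Plk1: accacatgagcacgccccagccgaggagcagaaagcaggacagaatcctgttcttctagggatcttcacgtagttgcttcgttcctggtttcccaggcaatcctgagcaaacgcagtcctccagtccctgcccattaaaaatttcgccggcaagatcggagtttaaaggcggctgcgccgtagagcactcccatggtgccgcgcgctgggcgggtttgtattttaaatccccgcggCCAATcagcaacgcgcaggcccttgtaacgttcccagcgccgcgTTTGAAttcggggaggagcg
Ccnb2: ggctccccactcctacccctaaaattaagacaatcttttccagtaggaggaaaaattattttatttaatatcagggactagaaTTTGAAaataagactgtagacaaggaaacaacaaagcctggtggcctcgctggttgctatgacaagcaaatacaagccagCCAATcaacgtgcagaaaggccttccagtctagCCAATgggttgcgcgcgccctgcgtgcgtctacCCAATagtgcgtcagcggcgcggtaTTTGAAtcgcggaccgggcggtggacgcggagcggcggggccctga
Cdk1: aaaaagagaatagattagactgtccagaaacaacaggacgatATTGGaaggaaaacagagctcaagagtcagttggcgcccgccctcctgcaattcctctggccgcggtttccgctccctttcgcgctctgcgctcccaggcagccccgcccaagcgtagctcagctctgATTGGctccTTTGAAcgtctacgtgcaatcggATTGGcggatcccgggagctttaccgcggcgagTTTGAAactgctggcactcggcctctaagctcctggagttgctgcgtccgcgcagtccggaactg
Plk1 holds 1 CHR and 1 CCAAT match, and Ccnb2 and Cdk1 each hold 2 and 3. Over the mitosis list 74.5% of 51 promoters, from 49 of the 59 genes, held the CHR letters and 76.5% held a CCAAT box. Among all promoters these shares were 17.9% and 37.4%, and among promoters of the genes tested 12.8% and 37.4%. The promoters of the DNA replication list held CHR in 14.3% and CCAAT in 57.1% (28 promoters), so that the CHR letters were common in the mitotic and not in the replication promoters. Promoters of genes that fell at least 2-fold in both genotypes held the CHR letters in 15.9%, and those of genes that rose as much in 13.7%. Lists that rose varied, with CHR in 55.6% of 9 CYP2C promoters and 9.86% of 71 promoters of oxidative phosphorylation subunits. CCAAT was in 82.6% of 23 promoters of the unfolded protein response list, which mostly rose. High shares of these letters were thus not particular to the mitotic list.

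DNA replication genes fell by less. Of 31 measured, 27 fell and 1 rose (median −1.53). The licensing factor Cdc6 was below background at 1 month (at least 5.56-fold lower), Mcm4 and Mcm7 of the replicative helicase fell by 1.82 ± 0.10 and 1.53, and the nucleotide enzymes Tyms and Rrm2 fell by 1.30 ± 0.12 and 1.20 ± 0.22. Genes of DNA methylation and heterochromatin followed, with 16 of 23 lower and 2 higher (median −0.96). Uhrf1, which brings the maintenance methyltransferase to replicated DNA, fell by 4.12 ± 0.18, that enzyme, Dnmt1, by 1.54 ± 0.12, the remodeller Hells by 1.87 ± 0.15 and the chromatin protein Hmgb2 by 3.47 ± 0.12. Genes that restrain division went both ways. The inhibitor Cdkn1a rose by 2.48 ± 0.23 (9.47, 9.42 and 9.17 to 12.46, 11.27 and 11.76), Gadd45g, a stress-response gene, by 2.96 ± 0.40 and Klf9 by 2.57 ± 0.13, while the embryonic inhibitor Cdkn1c fell, as given above, and Cdkn2c and Cdkn1b fell by 1.05 ± 0.21 and 0.66 ± 0.16.

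Transcripts of blood-forming cells were lost from the liver. In whole tissue, fewer cells of a type and less RNA per cell cannot be told apart. The neutrophil and mast cell list had 21 of 23 genes lower, 0 higher in the age test (limma) and a median of −4.56, and of the 13 above background at both ages 11 fell. Myeloperoxidase, Mpo, of neutrophil granules read 12.74, 12.59 and 11.68 at 5 days and 5.94, 5.73 and 5.17 at 1 month, a fall of 6.72 ± 0.29 (adjusted p = 0.000197). The antimicrobial peptide gene Camp was below background at 1 month, at least 160-fold lower, and Prg2, of eosinophil granules, at least 239-fold lower. The calgranulin S100a8 fell by 5.32 ± 0.34, lactoferrin, Ltf, by 7.12 ± 0.36 and Ngp, a neutrophil granule protein, by a fitted 7.69 ± 0.31, with 1 of 3 arrays above background at 1 month. The cystatin-like genes Cstdc5 and Stfa3 of myeloid cells fell by 10.10 ± 0.44 and 8.04. Neutrophil transcripts were lower in 5-day knockout 2 than in the other 5-day arrays: the summed signal of 8 markers was 166100, 168900 and 93740 at 5 days and 3428, 3210 and 5502 at 1 month.

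Red cell genes fell unevenly. Membrane and globin-handling genes had 23 of 26 lower, 0 higher in the age test (limma) and a median of −2.94, and 17 of the 20 above background at both ages fell. The α-globin chaperone Ahsp read 13.42, 12.64 and 12.64 at 5 days and 7.20, 7.31 and 8.29 at 1 month, a fall of 5.30 ± 0.39 (adjusted p = 0.000565). The anion exchanger of red cells, Slc4a1, fell by 4.31 ± 0.24, the blood group protein Ermap by 3.12 ± 0.15, and Epb42, of the membrane skeleton, was below background at 1 month (at least 4.94-fold lower). Haemoglobin RNA itself fell far less: Hba-a1 by 1.29 and Hbb-bt by 0.91 ± 0.14 (18.15, 18.11 and 18.01 to 16.93, 17.34 and 17.27). The α- and β-globin copies are nearly identical and can share signal. Among 27 genes of erythroid transcription and haem synthesis, which hepatocytes also carry out, 11 fell and 5 rose (median −0.21). The erythroid factors Klf1 and Tal1 fell by 2.90 ± 0.35 and 2.40 ± 0.25, Epor, the erythropoietin receptor, by 2.45 ± 0.14 and carbonic anhydrase Car2 by 2.72 ± 0.10. The erythroid haem enzyme Alas2 differed by −0.14 ± 0.21 (adjusted p = 0.602) and Gata1 by 0.25 (adjusted p = 0.203).

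Platelet, lymphoid and progenitor genes fell too. Of 17 megakaryocyte genes 16 fell, each of them at least 2-fold in both genotypes (median −3.06). The platelet chemokine Ppbp read 11.72, 11.52 and 11.65 and then 5.41, 5.63 and 5.51, a fall of 6.11 ± 0.12 (adjusted p = 4.43e-05), and Pf4 and the platelet receptor subunit Gp9 fell by 4.06 ± 0.23 and 4.66 ± 0.12. Of 19 B cell genes 16 fell and 0 rose in the age test (limma, median −2.90). The B cell receptor chain Cd79b read 12.04, 12.07 and 11.41 and then 7.65, 7.92 and 7.74, the immunoglobulin heavy chain Ighm fell by 4.29 ± 0.27, and Ms4a1, the surface protein CD20, by 3.5 ± 0.22. T and natural killer cell genes had 15 of 22 lower and 3 higher (median −1.38), with the T cell receptor chain Cd3d down by 2.12 ± 0.25. The related chains went opposite ways: Cd3g fell by 0.96 ± 0.17, and Cd3e rose by 0.56 ± 0.18. Of 16 stem and progenitor genes 11 fell and 2 rose (median −1.31), among them Cd34 by 1.86 ± 0.14 and the stem cell factor receptor Kit by 1.24 ± 0.18.

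The resident non-parenchymal cells changed less evenly. Stellate cell and matrix genes fell in 36 of 45 cases and rose in 2 (median −1.49), 30 of them by at least 2-fold in both genotypes. Col1a2, a chain of type I collagen, read 14.26, 14.24 and 14.41 and then 11.86, 12.53 and 12.11 (a fall of 2.14 ± 0.17, adjusted p = 0.000687), Reln, a stellate cell glycoprotein, fell by 2.46 ± 0.13, the matrix protein Postn by 2.60 ± 0.17, and Thbs2 was below background at 1 month (at least 13.5-fold lower). Lrat, another stellate cell marker, differed by −0.38 ± 0.21 and did not pass. Kupffer cell and macrophage genes fell in 21 of 27 cases and rose in 2, but only 7 fell at least 2-fold in both genotypes (median −0.73). The scavenger receptor Marco fell from 14.13, 14.29 and 14.04 to 9.69, 9.73 and 8.96, and Spic, the factor of iron-recycling macrophages, fell by 2.79 ± 0.26, whereas the general markers Adgre1, Cd5l and C1qa fell by 1.09 ± 0.11, 0.73 ± 0.16 and 0.47 ± 0.12. Clec4f, a further Kupffer cell marker, differed by 0.24 ± 0.16 and did not pass. Nr1h3, the oxysterol receptor that hepatocytes share, rose by 1.45 ± 0.12. Sinusoidal endothelial genes had 14 of 28 lower and 4 higher (median −0.38), with the scavenger receptor Stab2 down by 0.98 ± 0.11 and the lectin Clec4g up by 0.69 ± 0.15. Of 20 cholangiocyte genes 11 fell and 2 rose (median −0.65), and Krt23, a keratin, fell by 5.06 ± 0.31. The highest difference in that list was 5.40, and the marker Sox9 did not pass (0.51 ± 0.58). The summed signal of 5 hepatocyte markers was 802100, 802400 and 836200 at 5 days and 1005000, 1066000 and 1112000 at 1 month. Skeletal muscle genes had a median of −1.13 with 5-day knockout 1 and 0.41 without it, and with slide as a block, where that array carries the age difference, 14 of 17 fell (median −2.46). For the muscle genes the age difference is thus a difference of 1 array.

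**Figure D3:**
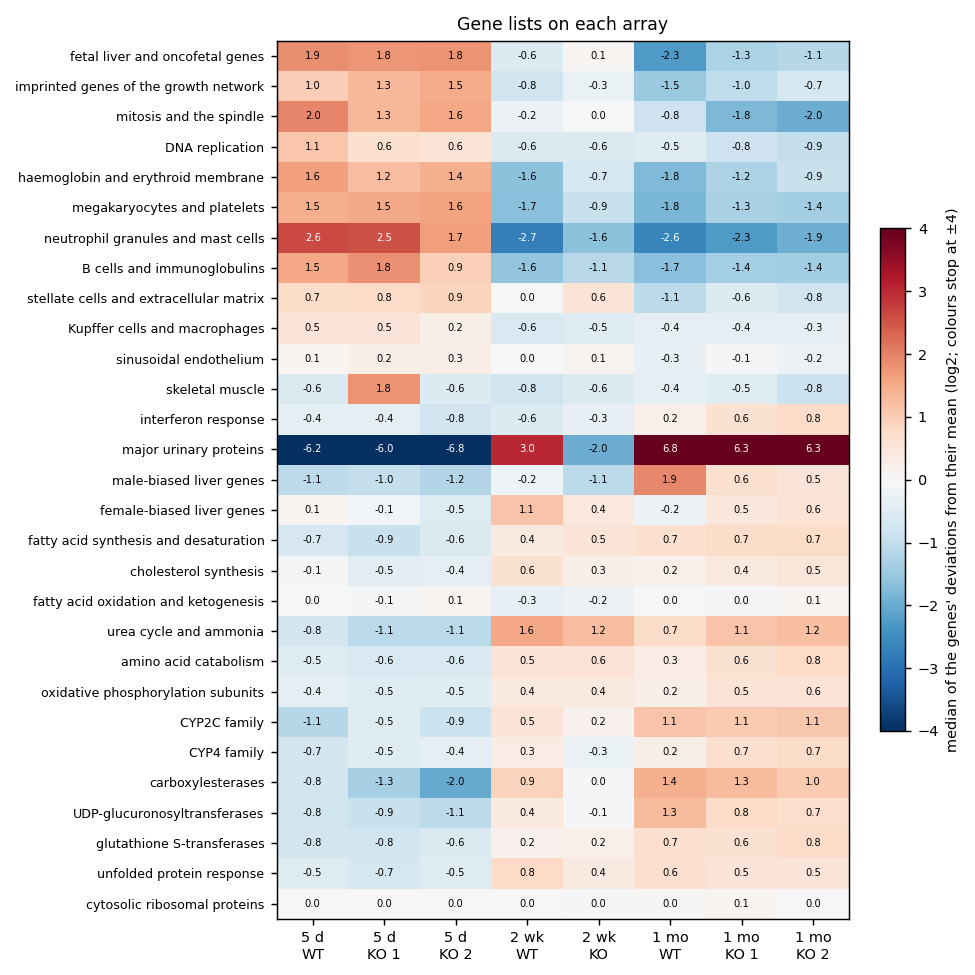
Median over the genes of each list of their deviation from their own mean over the arrays (log2, colours stopping at ±4), 1 column per array. Fetal, mitotic and blood cell lists are high on the 5-day arrays and low on the 1-month arrays, most metabolic lists do the reverse, those of fatty acid oxidation and ribosomal proteins stay near 0, and the muscle list is high on 5-day knockout 1 alone.

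The major urinary proteins were among the named genes of largest fitted rise. They are pheromone carriers that adult mouse liver secretes. All 7 measured genes rose, at least 2-fold in both genotypes, and 4 of them were below background at 5 days. Mup4 read 4.62, 4.44 and 4.02 at 5 days and 17.30, 17.13 and 17.15 at 1 month, a rise of 12.83 ± 0.15 (adjusted p = 1.43e-05). Mup3 rose by 12.32 ± 0.24, and Mup5, Mup8, Mup9 and Mup6 were at least 10700-fold, 4300-fold, 338-fold and 176-fold higher. The genes of this cluster are nearly identical and their probes can read each other's RNA, so the 7 values are not independent. With slide as a block all 7 still rose (median 12.36).

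Genes known to be higher in adult male liver rose in 17 of 21 cases and fell in 1 (median 1.83). The steroid enzyme Hsd3b5 read 6.46, 6.11 and 5.79 and then 13.53, 11.79 and 12.19, a rise of 6.38 ± 0.27 (adjusted p = 0.000194). The fatty acid hydroxylase Cyp4a12a read 4.56, 5.02 and 4.68 and then 14.87, 12.26 and 11.50, the elongase Elovl3 was below background at 5 days and read 12.65, 10.28 and 8.77 at 1 month (at least 101-fold higher), and the uptake carrier Slco1a1 was at least 114-fold higher. In these 4 genes the 1-month wild type was the highest array. Genes known to be higher in female liver also moved: 9 of 23 rose and 4 fell (median 0.69). Their median was −0.25 in wild type and 0.86 in the knockouts, and with quantile normalization 7 rose and 6 fell (median 0.14). Cux2, a female-predominant transcription factor, fell from 9.85, 10.18 and 10.34 to 2.75, 3.5 and 5.55, where 1 of the 3 arrays was above background (fitted fall 6.19 ± 0.60), while Hamp2, a hepcidin copy, and Cyp2a4, a steroid hydroxylase, rose by 8.0 ± 0.65 and 5.93 ± 0.72. Since 5-day knockout 1 has Xist and no Y-linked signal, these lists were also counted without it: 17 male-biased genes rose and 1 fell, and 10 female-biased genes rose and 5 fell. The 5-day wild-type pool, which stayed in, also had Xist (12.13), and the 1-month arrays read 2.34, 2.30 and 2.36. Age and sex are thus partly confounded in this comparison, and the part of sex was not tested. In the growth hormone and IGF axis the list went down, 12 of 25 lower and 5 higher (median −0.38), and its ligands moved opposite ways. Igf1, the postnatal growth factor, rose from 14.69, 14.51 and 13.81 to 16.06, 15.90 and 15.78 (1.58 ± 0.21, adjusted p = 0.0029) and the growth hormone receptor Ghr by 0.99 ± 0.13, although 1 of its 5 probes read −0.42. Igf2, the receptor Igf1r (−1.90 ± 0.12), the binding protein Igfbp2 (−1.80 ± 0.13) and the RNA-binding proteins Igf2bp2 (−2.13 ± 0.13) and Igf2bp3 (−1.97 ± 0.16) fell.

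Among secreted plasma proteins, whole lists moved little and single members moved far. Of 30 plasma carriers 14 rose and 7 fell (median 0.37, −0.10 with quantile normalization), of 28 apolipoprotein genes 13 rose and 3 fell (median 0.42, −0.09 with quantile normalization), and of 33 coagulation genes 9 rose and 9 fell (median 0.05, −0.34 with quantile normalization). Of 35 complement genes 19 rose and 8 fell (median 0.56, with quantile normalization 13 and 11 and 0.07), with the pore-forming components C9 and C8b up by 4.01 ± 0.22 and 2.18 ± 0.12. Acute phase genes rose in 13 of 25 cases and fell in 4 (median 0.58), and with quantile normalization 10 rose and 8 fell (median 0.02). Among them the orosomucoids Orm1 and Orm2 rose by 10.49 ± 0.38 and 10.64 ± 0.36, and serum amyloid Saa2 rose from 8.86, 7.40 and 6.31 to 14.34, 16.03 and 16.85. Hamp, hepcidin, which limits iron export into plasma, rose by 5.45 ± 0.46.

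Several of these genes were uneven at 5 days. Serpina3k, a protease inhibitor, read 12.56, 8.63 and 7.15 and then 18.46, 18.58 and 18.64, a rise of 9.11 ± 1.06 (adjusted p = 0.00185). The murinoglobulin Mug1, a plasma inhibitor of proteases, read 13.76, 10.88 and 7.63 and then 17.70, 17.88 and 17.81 (7.04 ± 1.26). Apoc3, the apolipoprotein that slows triglyceride clearance, read 13.15, 9.80 and 8.78 and then 17.15, 16.99 and 17.11 (6.51 ± 0.82). In all 3 the 5-day wild-type pool was the highest of its age and 5-day knockout 2 the lowest, while the 1-month arrays lay close together. Of 17 clade A serpins 9 rose and 2 fell (median 0.65, with quantile normalization 4 and 3 and 0.18), and Serpina7, the thyroxine carrier, fell by 3.0 ± 0.16. Apoa1, the main protein of high-density lipoprotein, fell by 0.49 ± 0.11.

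Lipid synthesis rose and part of fat oxidation fell. Of 30 genes of fatty acid synthesis and desaturation, 22 rose and 2 fell (median 1.31). The desaturase Scd1 read 7.23, 8.13 and 6.73 at 5 days and 15.39, 15.94 and 15.52 at 1 month, a rise of 8.26 ± 0.38 (adjusted p = 0.000232). Fatty acid synthase, Fasn, read 12.33, 11.86 and 11.95 and then 15.51, 16.70 and 16.95 (4.34 ± 0.37). Malic enzyme, Me1, which supplies NADPH, rose by 5.47 ± 0.21, the carboxylase Acacb by 4.25 ± 0.23 and Thrsp, a lipogenic gene that responds to thyroid hormone, by 8.43 ± 0.86. Cholesterol synthesis genes rose in 13 of 26 cases and fell in 0 by the age test (limma, median 0.68), with Insig1, a brake of the pathway, up by 1.74 ± 0.14 and Fdps by 1.77 ± 0.29. In this list 9 rose and 3 fell with quantile normalization, and its median was 0.17 in wild type and 0.83 in the knockouts. Of 36 genes of fatty acid oxidation and ketogenesis 14 fell and 7 rose (median 0.04, −0.51 with quantile normalization). Cpt1a, which admits fatty acids to mitochondria, read 14.46, 14.23 and 14.39 and then 12.97, 12.73 and 12.85 (a fall of 1.51 ± 0.11, adjusted p = 0.000553). Bdh1, of ketone body synthesis, fell by 1.47 ± 0.17, Acat1 by 1.33 ± 0.13 and Ppara, the receptor that drives the pathway, by 1.04. Peroxisomal genes rose in 20 of 34 cases and fell in 4 (median 0.74, with quantile normalization 16 and 10 and 0.39), with catalase, Cat, up by 2.35 ± 0.15.

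Bile acid genes rose in 18 of 31 cases and fell in 1 (median 0.75). Baat, which couples bile acids to taurine, read 7.54, 6.17 and 6.22 and then 13.27, 13.24 and 13.18, a rise of 6.59 ± 0.28 (adjusted p = 0.000197). The side-chain enzyme Cyp27a1 rose by 3.54 ± 0.20, Cyp2c70, which makes muricholic acids, by 2.47 ± 0.12, and the export pump Abcb11 by 1.42 ± 0.12. Cyp7b1, of the alternative pathway, rose from 7.05, 6.90 and 6.96 to 14.39, 10.27 and 9.92 (4.56 ± 0.87, adjusted p = 0.00843). Cyp7a1, the rate-limiting enzyme of the classical pathway, did not pass: it read 8.94, 9.39 and 9.81 at 5 days and 8.45, 6.86 and 9.55 at 1 month (−1.09 ± 0.71, adjusted p = 0.238), with overlapping ages. On the 2-week arrays it read 14.09 in wild type and 13.76 in the knockout, higher than on any array of the other ages.

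The enzymes of drug and steroid metabolism rose family by family. In the CYP2C family 7 of 10 rose, each at least 2-fold in both genotypes (median 2.31), in the CYP2A and CYP2B families 5 of 8 (median 1.58), in CYP2D 6 of 7 (median 0.69), in CYP3A 5 of 6 (median 1.42) and in CYP4 10 of 13 with 2 lower (median 1.10). The CYP2A and CYP2B median was 0.48 in wild type and 2.54 in the knockouts. With quantile normalization 2 CYP2D genes rose (median 0.27) and 3 CYP3A genes (median 0.86), and with slide as a block 4 and 2. Cyp2f2, an enzyme of periportal hepatocytes, read 12.29, 12.79 and 12.38 and then 17.35, 17.07 and 17.01, a rise of 4.65 ± 0.19 (adjusted p = 0.000194). Cyp1a2, which oxidises caffeine, rose by 3.13 ± 0.26, Cyp2a5, the nicotine oxidase, by 6.19 ± 0.75, Cyp2d13 by 7.35 ± 0.44 and Cyp26a1, which breaks down retinoic acid, by 5.98 ± 0.47. The best known adult forms changed less: Cyp3a11 rose by 1.54 ± 0.21 and Cyp2e1, the ethanol oxidase, by 0.72 ± 0.14 (0.11 with quantile normalization). Cyp2b10, the target of the receptor CAR, was uneven, at 7.45, 7.67 and 6.71 and then 6.37, 9.02 and 10.56 (adjusted p = 0.232). Members of these families are close in sequence and can share signal.

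**Figure D4:**
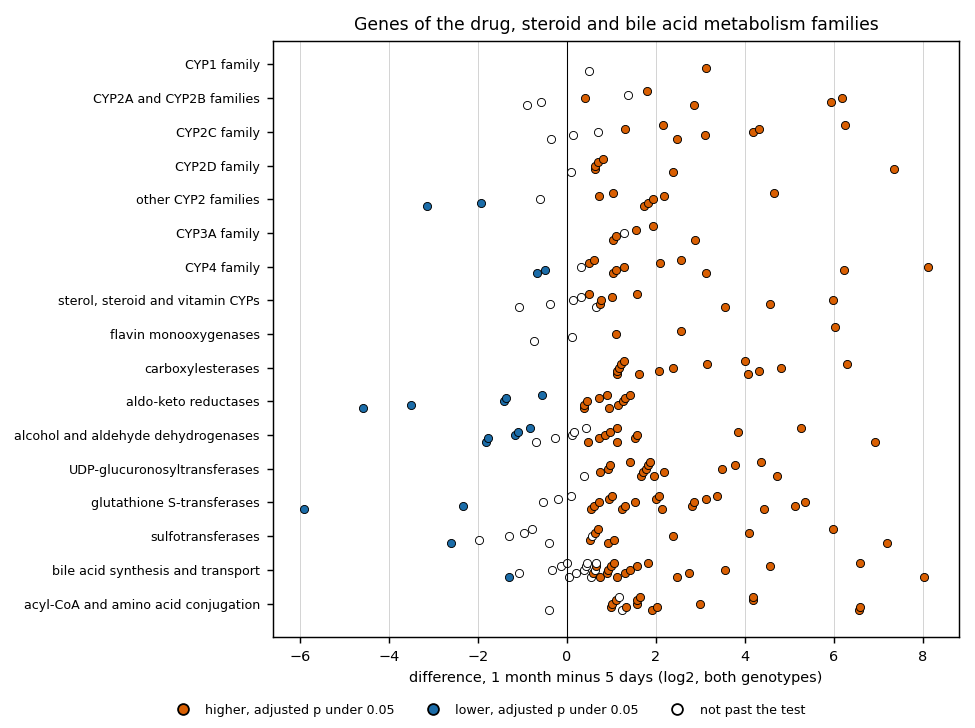
Difference between 1 month and 5 days (log2, both genotypes) of each measured gene of the drug, steroid and bile acid metabolism families, 1 point per gene, filled where the adjusted p was under 0.05. Every carboxylesterase and 15 of 16 genes of the UDP-glucuronosyltransferase list are filled on the right of 0, and the aldo-keto reductases spread to both sides.

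All 14 carboxylesterases rose (median 2.23), among them Ces3b by 4.31 ± 0.27 and Ces1f by 6.29 ± 0.45 (9.70, 6.51 and 5.55 to 14.92, 13.16 and 12.57), but with slide as a block 7 of the 14 passed. Of 16 genes of the UDP-glucuronosyltransferase list 15 rose and 0 fell by the age test (limma, median 1.80), led by Ugt2a3 (4.73 ± 0.54). Ugdh, which is no transferase but makes their sugar donor, rose by 3.49 ± 0.19. Of 23 glutathione S-transferase genes 18 rose and 2 fell (median 1.31), with Gstm2 up by 3.37 ± 0.11 and Gsta2 by 5.34 ± 0.48, while Mgst2, a microsomal member, was at least 58.3-fold lower. Of 16 sulfotransferases 9 rose and 1 fell (median 0.59, with 0.15 in wild type and 1.12 in the knockouts). Sult1e1, which inactivates oestrogen, was below background at 5 days and read 5.95, 10.40 and 12.50 at 1 month, lowest in the wild type, and Sult1c2 fell by 2.61 ± 0.41. Acyl-CoA and amino acid conjugation genes rose in 14 of 17 cases and fell in 0 by the age test (limma, median 1.58), with the nicotinamide methyltransferase Nnmt up by 6.57 ± 0.25.

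Alcohol and aldehyde dehydrogenases rose in 11 of 21 cases and fell in 5 (median 0.46). Aldh1a1, which oxidises retinal, read 10.12, 9.68 and 9.85 and then 16.57, 16.78 and 17.06, a rise of 6.92 ± 0.19 (adjusted p = 0.000116), and Adh4 rose by 5.25 ± 0.34. Of 15 aldo-keto reductases 10 rose and 5 fell (median 0.44), with Akr1c18, which inactivates progesterone, down by 4.58 ± 0.24 and the stress-inducible Akr1b8 and Akr1b10 down by 1.42 ± 0.17 and 1.37 ± 0.16. Of 5 flavin monooxygenases 3 rose. Of 31 carriers of organic ions 14 rose and 5 fell (median 0.92), and the uptake carrier Slco2b1 rose from 8.12, 7.93 and 7.83 to 12.73, 12.46 and 12.27.

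**Figure D5:**
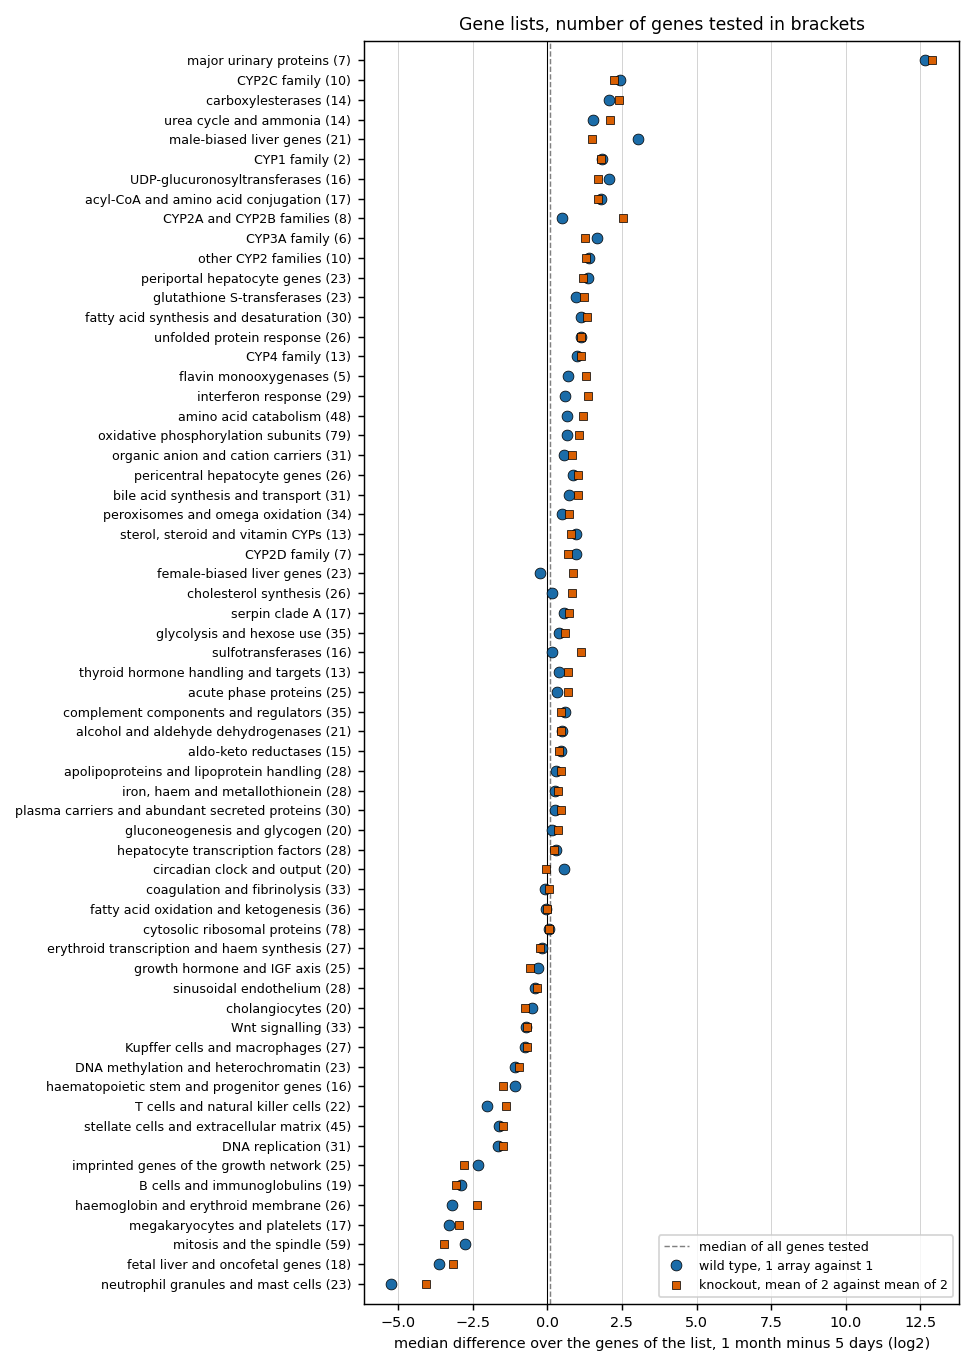
Median difference between 1 month and 5 days (log2) over the genes of each list, in the wild type and in the knockouts, with the number of genes tested in brackets. In the lists of largest difference the medians of both genotypes lie on the same side of 0.

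Nitrogen metabolism rose as a block. Of 14 urea cycle and ammonia genes 11 rose and 0 fell by the age test (limma, median 1.86). Cps1, which fixes ammonia, read 13.36, 13.44 and 13.32 and then 15.31, 15.88 and 15.72, a rise of 2.26 ± 0.15 (adjusted p = 0.000459), Ass1 rose by 2.61 ± 0.12 and arginase, Arg1, by 2.64 ± 0.21. Of 48 amino acid catabolism genes 36 rose and 2 fell (median 1.08), 20 of them at least 2-fold in both genotypes. The alanine aminotransferase Gpt rose by 5.24 ± 0.16 (9.63, 10.18 and 9.79 to 14.63, 15.35 and 15.33), proline dehydrogenase, Prodh, by 5.23 ± 0.26, histidine ammonia lyase, Hal, by 3.91 ± 0.16 and tyrosine aminotransferase, Tat, by 2.94 ± 0.22. Asns, which makes asparagine, fell by 4.36 ± 0.22.

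In sugar metabolism genes moved both ways. Hk1 and Hk3, hexokinases of other tissues and of white blood cells, fell by 1.56 ± 0.16 and 1.24 ± 0.13, and the glucose carrier Slc2a3 by 3.23 ± 0.19. Of 35 glycolysis and hexose genes 19 rose and 8 fell (median 0.61), and of 20 genes of gluconeogenesis and glycogen 9 rose and 3 fell (median 0.32). With quantile normalization these were 11 and 9 (median 0.07) and 6 and 5 (median 0.01). Ppp1r3b and Ppp1r3c, which bring a phosphatase to glycogen, rose by 3.39 ± 0.17 and 1.81 ± 0.13, and glucose-6-phosphatase, G6pc, differed by −0.37 and did not pass (adjusted p = 0.43). Subunits of oxidative phosphorylation rose in 72 of 79 cases and fell in 1 (median 0.94, 7 at least 2-fold in both genotypes), among them Cox6c at 1.46 ± 0.13 and Sdha at 1.52 ± 0.14, whose 3 probes differed by −0.05 to 1.52. With quantile normalization 39 rose and 2 fell (median 0.37). Cytosolic ribosomal proteins stood at a median of 0.04 with 10 of 78 higher and 1 lower, but with quantile normalization at −0.50 with 1 higher and 60 lower. The size of the first change and the direction of the second thus rest on how the arrays were scaled.

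Genes of both ends of the liver lobule rose. Of 23 periportal genes 13 rose and 2 fell (median 1.34), and Pigr, which carries antibodies into bile, rose by 5.52 ± 0.25. Of 26 pericentral genes 16 rose and 4 fell (median 0.90), and Glul, glutamine synthetase of the cells around the central vein, rose by 0.81. Wnt pathway genes fell in 18 of 33 cases and rose in 1 (median −0.68), among them the inhibitors Dkk3 (−2.40 ± 0.17) and Wif1 (−3.0) and the effector Lef1 (at least 6.44-fold lower). Among 28 hepatocyte transcription factors 9 rose and 2 fell (median 0.21, with quantile normalization 8 and 6 and 0.05): Hnf4a rose by 1.39 ± 0.15, Cebpb by 2.07 ± 0.24 and Foxa1 by 2.17 ± 0.32. In thyroid hormone handling 7 of 13 genes rose and 4 fell (median 0.58). The activating deiodinase Dio1 rose by 3.92 and the receptor Thrb by 0.58, and the inactivating deiodinase Dio3 fell by 3.58 ± 0.36 and the receptor Thra by 0.77.

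Folding and interferon genes rose as well. Of 26 genes of the unfolded protein response 17 rose and 3 fell (median 1.13), with the endoplasmic reticulum chaperones Hyou1, Sdf2l1 and Hspa5 up by 2.77 ± 0.12, 3.35 ± 0.14 and 1.16. Of 29 interferon response genes 19 rose and 4 fell (median 1.09), with Ifi27 from 12.32, 11.52 and 11.63 to 14.63, 14.17 and 13.95 (2.43 ± 0.12, adjusted p = 0.000261), the membrane protein Bst2, which tethers viruses, up by 2.53 ± 0.16 and the factor Irf7 by 1.97 ± 0.21. With slide as a block 11 interferon genes rose and 2 fell. Of 28 iron, haem and metallothionein genes 12 rose and 5 fell (median 0.39). In the circadian list 7 of 20 rose and 7 fell: Dbp fell by 3.54 ± 0.22, Nr1d2 by 1.51 ± 0.11 and Per3 was at least 5.07-fold lower, and Cry1 was at least 4.21-fold higher and Clock rose by 1.26 ± 0.11. The labels give no hour of collection, and its part in these values was not tested.

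The test of whether the age difference itself differed between genotypes called 0 of 17232 genes (0%, limma), with 1841 at an unadjusted p under 0.05 and 14 genes past with median centring. The wild type has 1 array at each age, so the spread comes from the knockout pairs. The nearest were H19, at −11.34 in wild type and −3.55 in the knockouts, and 1810053B23Rik, named after its values were seen, at −1.24 and 5.77 (adjusted p = 0.0672 for both). The latter was below background on the 5-day arrays and on the 1-month wild type. Igf2 stood at −12.40 and −8.87, Gpc3, a fetal liver proteoglycan, at −6.60 and −3.44, Cyp7b1 at 7.34 and 3.16 (adjusted p = 0.188 for each of these 3) and the serpin pseudogene Serpina4-ps1, below background at 5 days, at 8.20 and 3.79 (adjusted p = 0.109). H19 and these 4 moved the same way in both genotypes, and by less in the knockouts. Other genes with an adjusted p of 0.188, chosen here after their values were seen, stood on opposite sides, among them the kinase Plk3 at 3.99 and −1.22, the immediate early factor Egr2 at 3.86 and −1.62 and Tiam2 at −1.37 and 2.39. Hao2, a peroxisomal hydroxy acid oxidase, stood at −4.01 in wild type, with 8.31 on its 1-month array against 12.32 at 5 days, and at −0.61 in the knockouts.

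The 2-week arrays, 1 of each genotype, show how much of the change was in place by then, as a description with no test. Among genes that changed at least 2-fold in both genotypes, the median share of the 5-day to 1-month difference reached at 2 weeks was 78.9% in wild type and 70.3% in the knockout for genes that rose and 78.1% and 70.4% for genes that fell. Neutrophil genes stood at 106% and 92.8%, B cell genes at 104% and 98.8%, and T and natural killer cell genes at 70.6% and 87.7%. Urea cycle genes had overshot in wild type, at 142% against 100% in the knockout, and amino acid catabolism stood at 118% and 95.1%. Mitosis genes stood at 72.4% in wild type, near the 78.1% of all genes that fell, and at 42.1% in the knockout, below its 70.4%. Stellate and matrix genes were late on both arrays, at 43.4% and 16.7%. Male-biased genes stood at 51.1% and 21.2% and the major urinary proteins at 69.7% and 38.0%. Mup4 read 15.02 in the 2-week wild type and 9.57 in the 2-week knockout, and Afp read 8.58 and 11.39. In the stellate, male-biased and urinary protein lists the single knockout array thus lay nearer to the 5-day level than the single wild-type array. With 1 array of each the genotype cannot be told apart from the animal.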

How the data were processed

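Total RNA of frozen livers was isolated with TRIzol, cleaned on columns with DNase and labelled for one-colour Agilent arrays, per the labels' protocols. Per the file headers, the scanner files hold signal intensity from Feature Extraction 10.7.3.1 (10.7 per the submitters' processing notes), with probe coordinates on mm9. The deposited matrix of the series holds log2 values of 41267 probes, whose sorted columns differ by at most 0.0081, and 0 of its columns were unmapped. How it was normalized is not given in the sources used here. Scanner intensities were used and the matrix served as an alternative.

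Processed signal was averaged over unflagged spots, scaled to each array's 75th percentile and taken to log2. A probe was kept if well above background on at least 2 of the 6 arrays (25930 were), and 82 were left out for outlier flags. Names came from RefSeq for 33639 probes and from the files for 7535. Of 6062 genes with several probes the brightest probe was taken, giving 17232 genes. An additive fit of age and genotype gave the age test, and a fit of 4 groups the knockout and interaction tests (limma 3.58.1, R 4.3.3). Their degrees of freedom were 3 residual plus 2.3 prior and 2 plus 2.25. The script was tested on simulated data. The R package data.table (1.17.8) read the tables. Figures were made in Python (3.11.15) by matplotlib (3.10.9).

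The comparison and the 75 gene lists (1795 genes, 1617 tested), written from general knowledge, were chosen with earlier results of these data known. Named genes were those of largest difference, the 6 members of smallest p and the first 4 of each list, and those nearest to passing for the interaction. Clones and predicted genes were left out, and some genes of the lists are counted in them but not reported singly here. Alternatives were scaling, background, filter, probe summary, slide, replicate block and leaving out arrays.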

Additional observations from a re-analysis of the deposited data

Results flagged for a closer look

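The 2-week knockout array, which the comparison of 1 month with 5 days does not use, carried pancreatic acinar signal. The summed signal of 3 acinar enzyme genes was 5608 there, against 55.08 in the 2-week wild type, 101.5 to 261.4 on the 5-day arrays and 53.67 to 78.76 on the 1-month arrays. The 2-week knockout enters the report only in the description of timing, and the part of this signal in those shares was not tested.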

How the results depend on the processing

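The count of genes that rose (5070) and fell (4620) was 2716 and 2936 with slide as a block and 2776 and 2999 within slide 2, where 5-day knockout 1 stands alone for its age, and 263 and 427 with the planned normexp background. With local backgrounds marked as outliers replaced by the array's median of the others before normexp, they were 6429 and 3953. In the knockouts normexp left 70 and 57 genes. Leaving out each array in turn gave 3539 to 4667 genes that rose and 3843 to 4086 that fell, and 2115 to 4152 and 2848 to 4025 in the knockouts, where the fewest rose without 1-month knockout 1 (2386) or 2 (2115). Genes whose age difference differed between genotypes numbered 14 with median centring, 2 with the replaced normexp and 1 with trended and robust variance. Replicate numbers did not pair the knockouts (r = −0.00111), and the replicate block gave 4490 and 4255 genes. All 9690 called genes kept their direction with slide, median centring, the replicate block and each array left out, 9541 with quantile normalization and 6819 with normexp. As they were called on these same arrays, the kept direction is no separate support. List medians turned with quantile normalization and the deposited matrix for plasma carriers (−0.10) and apolipoproteins (−0.09), with quantile normalization also for coagulation (−0.34), fatty acid oxidation (−0.51), ribosomal protein (−0.50), ABC transporter (−0.01) and nuclear receptor genes (−0.06), whose medians were 0.15 or less, and for muscle without 5-day knockout 1 (0.41, and −1.57 to 0.41 over the arrays left out). With normexp they turned for plasma carriers (−0.40), apolipoproteins (−0.36), progenitor (0.22), T cell (0.63), complement (−0.12), acute phase (−0.21), CYP2D (−0.16), gluconeogenesis (−0.25), glycolysis (−0.19), iron (−0.05), transcription factor (−0.11) and Wnt genes (0.11). So did Alb (−0.27), Aspm (0.37), B2m (−0.10), Cdc6 (0.08), Clec4g (−0.15), Cyp2e1 (−0.08), Epb42 (0.23), Glul (−0.03), Hells (0.54), Lef1 (0.08) and Per3 (0.17). Alas2 turned with median centring (0.02) and without 1-month knockout 2 (0.03, and −0.41 to 0.03 over the arrays left out). The cause of these turns was not tested. Signals near background have no order, and 3 arrays an age limit every value.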

Other observations

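Several groups that also make up the chromatin and signalling equipment of the liver moved in both directions between the ages. Of 24 measured BAF complex subunits, 10 fell and 4 rose (median −0.28), against 26.8% and 29.4% of all genes. This depended on the scaling: 2 fell and 5 rose with median centring (median −0.12), and 10 and 3 with quantile normalization (median −0.35). With slide as a block the median was −0.27, but most subunits lost their call, some of those named next among them. The core subunits Smarcc1 and Smarce1 fell by 0.64 ± 0.12 and 0.51 ± 0.10 and the ATPase Smarca4 by 0.36 ± 0.10, while the alternative ATPase Smarca2 rose by 0.72 ± 0.15 and Smarcd2 by 0.96 ± 0.14. Of 34 nuclear receptors 11 rose and 10 fell (median 0.10, −0.06 with quantile normalization). Pparg, a receptor of fat storage, fell by 2.37 ± 0.32, Rarb by 1.31 ± 0.14 and Esrra rose by 1.00 ± 0.13.

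Among 31 ribosome biogenesis genes 9 rose and 2 fell, with Bop1 up by 1.24 ± 0.12 and nucleophosmin, Npm1, down by 0.76 ± 0.15. Of 24 antigen presentation genes 8 fell and 5 rose. The class II activator Ciita fell by 2.02 ± 0.29 and the class I genes H2-K1 and B2m rose by 1.20 ± 0.16 and 0.76 ± 0.14. Of 36 ABC transporters 11 fell and 8 rose (median 0.15, −0.01 with quantile normalization). The lists of deoxynucleotide synthesis (9 of 19 rose, 6 fell), cell cycle inhibitors (5 of 16 rose, 6 fell), immediate early genes (5 of 22 rose, 3 fell), other serpins (3 of 19 rose, 7 fell) and acinar enzymes (3 of 14 rose, 3 fell) had no common direction. The immediate early median was 1.39 in wild type, with 1 array at each age, and −0.52 in the knockouts.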
